A study of Mus musculus with 4 samples.

Results

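Collagen processing and crosslinking enzymes are described here in mouse podocytes treated with IL-12. The group holds 10 genes chosen by name, namely Bmp1, Tll1, Pcolce, Lox, Loxl1, Loxl2, Loxl3, Loxl4, Plod2 and Serpinh1, of the 54532 genes in the deposited count table, and each name matched 1 row. The names were listed without regard to measured values, although with earlier results of these data known. RNA-sequencing was performed on 4 libraries of the mouse podocyte cell line MPC5, which is conditionally immortalized: it proliferates at a permissive temperature with interferon-γ and differentiates once these are withdrawn. The control group (2 libraries) was treated with saline, and the IL-12 treatment group (2 libraries) with IL-12 for 6 h, on the same cell line. The duration of the saline treatment is not stated in the sources used here. The comparison addresses what IL-12 does to gene expression in the podocyte, the cell type injured in minimal change disease. All libraries derive from 1 cell line, and separate cultures for the replicates are not stated in the sources used here, so p-values measure the spread between these libraries, which may be technical.

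Fibrillar collagens are made as procollagens in the endoplasmic reticulum. There, lysyl hydroxylases such as the product of Plod2 modify lysine residues, and the chaperone HSP47, the product of Serpinh1, binds and stabilizes the folded triple helix. After secretion, the tolloid family of metalloproteinases (Bmp1 and Tll1) removes the C-propeptide with the help of the enhancer protein encoded by Pcolce, and the copper-dependent lysyl oxidases (Lox and Loxl1 to Loxl4) oxidize lysine and hydroxylysine side chains so that collagen and elastin become crosslinked. These enzymes are best known from bone, skin and fibrotic tissue, and podocytes use part of the same machinery for the type IV collagen of the glomerular basement membrane. The level of an mRNA says nothing directly about secreted enzyme, its activity or crosslinks, none of which was measured in the tables used here.

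The total counts were between 18355379 and 20098012 per library, so that 3 counts, used here as the floor of detection, correspond to between 0.152 and 0.166 CPM (counts per 1000000 counted reads after TMM scaling). This floor covers counting error only. Within each group the libraries were further apart than sampling noise allows (chi-square per degree of freedom of 2.20 and 2.50 within groups, against 17.7 to 21.5 between groups), and each was counted as a replicate by its label. This spread may come from library preparation and does not show separate cultures. The label podocyte was compared with marker genes: Synpo, Actn4, Cd2ap, Kirrel, Podxl and Vegfa were among the 14095 genes tested, whereas the slit diaphragm gene Nphs1 had at most 1 count in any library, Tcf21 and Ptpro were at 0 in all libraries, and Wt1 had 4 to 16 counts. Of 14 podocyte markers, 7 were tested by the test given below. Of these 7, 3 were higher with IL-12, 1 (Synpo) was lower and 3 did not pass. The summed level of the 14 was 2931 to 2938 CPM in the control replicates and 2890 to 2903 CPM in the IL-12 replicates. Of all genes tested, 16.1% were higher and 14.4% were lower. Of 6 tubular epithelial markers, 3 (Lrp2, Cdh16 and Pax8) were expressed and all of these were lower with IL-12, with a summed level of 988 to 1032 CPM falling to 764 to 803 CPM. The 7 fibroblast and mesangial markers summed to 206 to 207 CPM and 223 to 231 CPM, with Pdgfra, Thy1 and Itga8 at no more than 3 counts in any library. The other 4 were tested. Acta2 (means of 136 CPM in control and 150 CPM with IL-12) and Pdgfrb (53.4 and 62.6 CPM) were higher with IL-12. Gata3 (14.73 and 11.75 CPM) was lower, and Des (2.01 and 2.01 CPM) did not pass the test given below. The 6 endothelial markers summed to at most 0.556 CPM, and the 6 leukocyte markers to at most 7.19 CPM, most of it Cd68. Whether these shifts have a part in the values below was not tested. In these bulk libraries, fewer cells of a type and less RNA per cell cannot be told apart.

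Per gene length, the 10 genes spanned from the most abundant transcripts of the cell to the edge of detection. Serpinh1 was the highest, with a mean of 470 FPKM (reads per kilobase of gene and per 1000000 reads, as deposited) over the 4 libraries, rank 36 among the genes tested. Pcolce followed at 103 FPKM, Loxl1 at 68.9, Plod2 at 32.9 and Bmp1 at 25.6 FPKM. Loxl3 (6.62 FPKM), Loxl2 (3.10) and Lox (1.87) were lower, and Tll1 (0.144) and Loxl4 (0.0514) were the lowest. In this order the ranges over the 4 libraries of neighbouring genes did not overlap, except those of Tll1, from 0 to 0.300 FPKM, and Loxl4, from 0.0120 to 0.118 FPKM. The spread between the groups was small beside the spread between the genes.

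**Figure D1:**
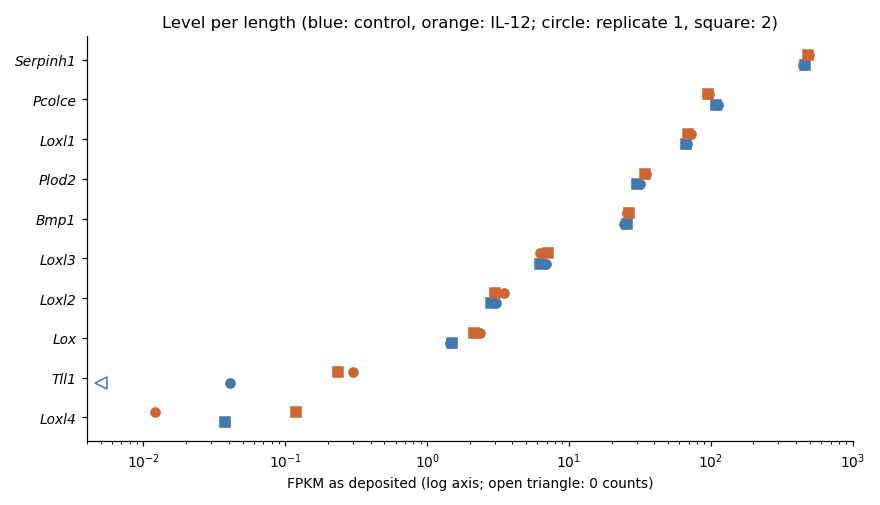
Deposited FPKM of the 10 genes (log axis) in each library, with control replicates in blue, IL-12 replicates in orange, circles for replicate 1 and squares for replicate 2. The genes run from Serpinh1 at 445 to 492 FPKM down to Loxl4 at 0.0120 to 0.118 FPKM, and the open triangle marks the control library with 0 counts of Tll1.

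With IL-12, Tll1, Lox, Plod2 and Serpinh1 were higher and Pcolce was lower, at an adjusted p below 0.05 from edgeR's quasi-likelihood test. Bmp1, Loxl1, Loxl2 and Loxl3 did not pass, and Loxl4 was not tested because its counts were too low for the filter. Thus 5 of the 9 genes tested were called (55.6%), where 30.5% of all genes tested were. In the upward direction 4 genes were called, beside 16.1% of all genes, and in the downward direction 1 gene was, beside 14.4%. Of all calls, 52.8% were higher, and with scaling by total counts only 40.5% were. Over 2-fold, the limit the study used for screening, Tll1 alone was called, beside 0.858% of all genes called higher by that rule. The IL-12 replicates lay entirely above both control replicates for 6 genes and entirely below them for Pcolce, so 7 of 9 did not overlap, beside 62.9% of all genes. The median log2FC (log2 fold change, IL-12 over control) was 0.10 over these 9 genes and -0.0022 over all genes tested, and the quartiles of all genes were -0.17 and 0.15, so Plod2, Serpinh1 and Pcolce changed by amounts that many genes in the table reached. Tll1 passed the filter only through the IL-12 replicates and so had to differ, and the counts of genes called describe the group without supporting anything about it.

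**Figure D2:**
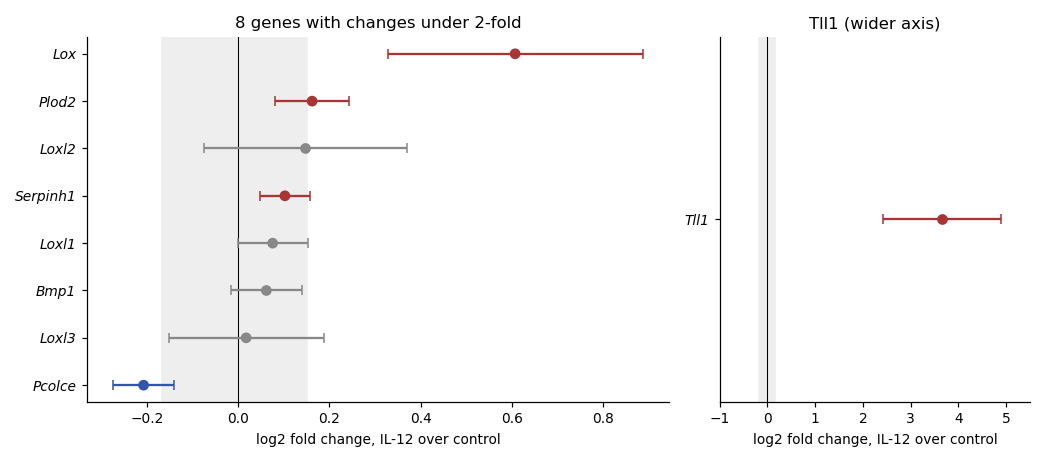
Log2FC values (IL-12 over control) of the 9 genes tested, with 95% confidence intervals as bars, red for genes called higher, blue for the gene called lower and grey for those not called. The grey band spans the quartiles of all genes tested, from -0.17 to 0.15, and Lox and Tll1 lie clear of it while Tll1 needs a wider axis.

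Of the tolloid proteinases, Tll1 was called higher and Bmp1 was not called. Bmp1 (ENSMUSG00000022098, chromosome 14 of GRCm38 from 70474558 to 70520234, minus strand), the main procollagen C-proteinase, had 218 and 226.5 CPM in the control replicates and 228 and 236 CPM in the IL-12 replicates. The IL-12 replicates were the higher in both cases, but the gap between 226.5 and 228 CPM was smaller than the spread within either group. The change was 4.38% (95% interval from -1.11% to 10.2%, adjusted p = 0.235), so a rise of more than about 10.2% lies outside the interval of this fit. The counts are per gene and do not separate the short Bmp1 form from the longer tolloid form, both of which the gene encodes.

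Tll1 (ENSMUSG00000053626, chromosome 8 from 64014931 to 64206271, minus strand), which encodes a second tolloid proteinase of the same domain plan, had 6 and 0 counts in the control replicates and 46 and 33 in the IL-12 replicates. That is 0.317 and 0 CPM against 2.33 and 1.82 CPM, so 1 control library was above the floor and the other held no read, while both IL-12 replicates were far above it. Summed over libraries, the depth-scaled ratio was 13.1, with an exact 95% interval of 5.78 to 36.9 that covers counting error only. The fitted log2FC was 3.66 (SE 0.59, where SE is the standard error, adjusted p = 8.65e-05 from edgeR's test), the second largest upward value among the genes tested. Because Tll1 passed the filter only through the IL-12 replicates, this p, this rank and the interval describe the counts and are not support for a change. The call depends on the tool: the DESeq2 Wald test gave Tll1 no adjusted p because of its independent filtering, and with that filtering turned off, a setting added after seeing the data, it gave a log2FC of 3.71 with an adjusted p of 0.117. Without Control replicate 1, the remaining control library holds 0 counts, and the mean of the IL-12 replicates was 13.1 times the floor of 3 counts there. That ratio depends on the chosen floor and on 1 control library, and is not a lower bound on the rise. Without Control replicate 2 the log2FC was 2.69.

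In every library, Tll1 was a minor part of the tolloid mRNA. Per length, it made up 0.166% and 0% of the summed FPKM of Bmp1 and Tll1 in the control replicates, and 1.15% and 0.875% in the IL-12 replicates. Annotated transcripts of the 2 genes share none of their words of 50 bases, and of the 7635 such words in Tll1 only 6 occur in any other gene, so reads of that length are not ambiguous between Tll1 and Bmp1.

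Pcolce (ENSMUSG00000029718, chromosome 5 from 137605103 to 137613784, minus strand), whose product binds the C-propeptide and speeds its removal by Bmp1, was the only gene of the 10 that was called lower. It had 430 and 417 CPM in the control replicates and 371 and 363 CPM in the IL-12 replicates. The groups were well separated, with a gap of several times the difference within either group. The log2FC was -0.21 (SE 0.03, adjusted p = 4.82e-05), a change of -13.4% with a 95% interval from -17.3% to -9.33%. The ratio of Pcolce to Bmp1 in FPKM went from 4.57 and 4.27 in the control replicates to 3.77 and 3.56 in the IL-12 replicates. The smallest two-sided p that an exact permutation test of such a ratio could reach here is 0.333, and no p is given. Fbxo24 on the same strand and Gm36266 on the opposite strand each share 112 exonic bases with Pcolce, but hold 98 and 44 counts over the 4 libraries against 29914 for Pcolce.

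The sequences before the transcription start are shown for the 3 called genes that the RefSeq promoter table (GRCm38.p6) holds, since these moved in different directions and by very different amounts. Of the 10 genes, 4 have an entry there (Tll1, Pcolce, Serpinh1 and Loxl4). Each run is the 250 bases upstream of the start, on the gene's strand from 5′ to 3′, at chr8:64206009-64206258 for Tll1, chr5:137611405-137611654 for Pcolce and chr7:99353240-99353489 for Serpinh1, all on the minus strand. Capitals mark matches on either strand to any of 9 short motifs listed next.
Tll1: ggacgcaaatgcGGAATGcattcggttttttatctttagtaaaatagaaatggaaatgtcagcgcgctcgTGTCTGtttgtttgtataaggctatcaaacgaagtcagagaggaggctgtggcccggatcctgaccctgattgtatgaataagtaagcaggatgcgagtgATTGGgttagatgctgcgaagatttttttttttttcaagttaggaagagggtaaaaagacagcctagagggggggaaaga
Pcolce: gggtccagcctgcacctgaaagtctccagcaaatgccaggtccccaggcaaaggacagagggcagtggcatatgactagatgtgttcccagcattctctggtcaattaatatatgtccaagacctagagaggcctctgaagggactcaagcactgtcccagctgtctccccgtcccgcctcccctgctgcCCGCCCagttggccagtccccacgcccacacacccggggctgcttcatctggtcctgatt
Serpinh1: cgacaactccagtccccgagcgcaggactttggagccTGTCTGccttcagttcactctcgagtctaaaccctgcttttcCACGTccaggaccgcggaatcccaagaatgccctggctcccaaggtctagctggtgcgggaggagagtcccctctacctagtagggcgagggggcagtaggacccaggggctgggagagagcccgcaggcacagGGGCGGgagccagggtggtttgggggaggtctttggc

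The motifs searched were the TATA box (TATAAA), the GC box (GGGCGG), the CCAAT box, the AP-1 site (TGANTCA), the SMAD element (CAGACA), the TEAD element (GGAATG), the STAT element (TTCNNNGAA), the heat shock element (GAANNTTC) and the core of hypoxia elements (ACGTG), and none of the matches shown overlap each other. The Tll1 window holds GGAATG beginning 238 bases before the start, the reverse complement of CAGACA at 180 and the reverse complement of CCAAT at 80. These motifs are common, with a match in 12.6%, 17.1% and 33.8% of all 32851 windows of this length. The Pcolce window holds 1 match, to GGGCGG on the opposite strand at 60, a motif found in 32.7% of windows. Serpinh1 holds GGGCGG at 37, CAGACA on the opposite strand at 213 and ACGTG on the opposite strand at 171, of which the last is found in 16.6% of windows. No match to the TATA box, the AP-1 site, the STAT element or the heat shock element is in the 3 windows, beside 12.4%, 6.75%, 7.02% and 6.69% of all windows. The windows hold 10, 5 and 11 CpG dinucleotides for Tll1, Pcolce and Serpinh1, beside a median of 6. The RefSeq starts of Pcolce and Tll1 lie 2380 and 263 bases inside the end of the deposited gene. The windows of both therefore lie within the deposited gene, while that of Serpinh1 lies just outside it. A match describes letters only.

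**Figure D3:**
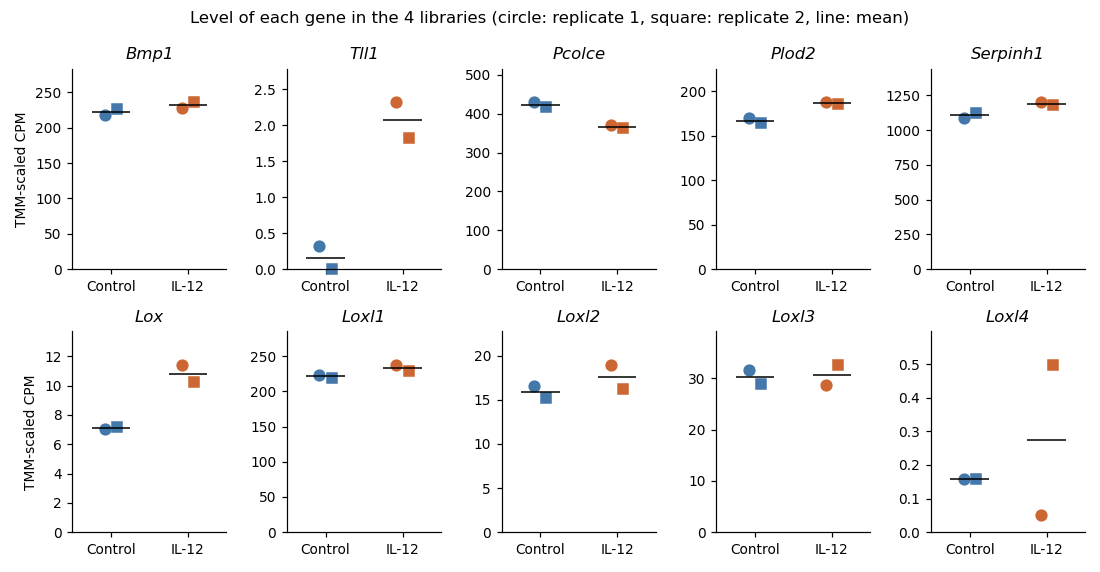
TMM-scaled CPM of each gene in the 4 libraries on axes that start at 0, with circles for replicate 1, squares for replicate 2 and lines for the group mean. Tll1 goes from 0.317 and 0 CPM to 2.33 and 1.82 CPM, Lox and Plod2 are clearly separated between groups, Pcolce is the gene that is lower, and the groups of Loxl2, Loxl3 and Loxl4 overlap.

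Inside the endoplasmic reticulum, both genes of the group were modestly higher with IL-12. Plod2 (ENSMUSG00000032374, chromosome 9 from 92542223 to 92608428, plus strand) encodes the lysyl hydroxylase that acts on the collagen telopeptides and thereby sets which crosslinks can form. It had 170 and 164 CPM in the control replicates and 188 and 186 CPM in the IL-12 replicates, without overlap. The change was 11.9% (95% interval from 5.73% to 18.4%, adjusted p = 0.00347 from edgeR's test). The call was lost without Control replicate 2, with an adjusted p of 0.0573. Gm38391 on the opposite strand shares 346 exonic bases with Plod2 and has 135 counts against 13405.

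Serpinh1 (ENSMUSG00000070436, chromosome 7 from 99345376 to 99353239, minus strand) had 1089 and 1125 CPM in the control replicates and 1201 and 1176 CPM in the IL-12 replicates. The groups did not overlap, and the change was 7.36% (95% interval from 3.32% to 11.6%, adjusted p = 0.00591). The call of this small change was lost in 4 of 13 alternatives. The adjusted p was 0.112 on deposited FPKM values with limma, 0.0855 with scaling by total counts only, 0.0917 without Control replicate 1 and 0.0832 without IL-12 replicate 1, with log2FC values of 0.10, 0.062, 0.081 and 0.089 against 0.10 as reported.

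Among the lysyl oxidases, Lox was the gene that rose. Lox (ENSMUSG00000024529, chromosome 18 from 52516069 to 52529867, minus strand), the founding member of the family and the main crosslinking enzyme of fibrillar collagen and elastin in many tissues, had 7.02 and 7.21 CPM in the control replicates and 11.4 and 10.2 CPM in the IL-12 replicates. These are 133 and 136 counts against 226 and 185, so both IL-12 replicates were well above both control replicates. The log2FC was 0.61 (SE 0.13, adjusted p = 0.00168), a rise of 52.3% with a 95% interval from 25.5% to 84.9%. No gene in the annotated table overlaps Lox, and none of its 50-base words in the GENCODE M21 transcripts occurs in another gene. The exons of Lox cover 4778 bases in that annotation, beside a deposited length of 4810, so the words may not cover all of the gene as counted.

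Loxl1 (ENSMUSG00000032334, chromosome 9 from 58287738 to 58313186, minus strand), known for its part in elastic fibre assembly, had 223 and 219.5 CPM in the control replicates and 238 and 229 CPM in the IL-12 replicates. The groups did not overlap, but the change of 5.38% had a 95% interval from -0.0591% to 11.1% and did not pass the test (adjusted p = 0.132). The interval of Loxl1 lies wholly below that of Lox.

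Loxl2 and Loxl3 belong to the subfamily with scavenger receptor domains, and LOXL2 is known to crosslink type IV collagen. Loxl2 (ENSMUSG00000034205, chromosome 14 from 69609068 to 69695834, plus strand) had 16.5 and 15.3 CPM in the control replicates and 19.0 and 16.2 CPM in the IL-12 replicates, and the lower IL-12 library was below the higher control library. Its change was 10.8% (95% interval from -5.02% to 29.2%, adjusted p = 0.329). The Loxl2 value is uncertain, since 45% of its 50-base words also occur in another annotated gene, 2299 of 5356 of them in the unprocessed pseudogene Gm21451. That pseudogene is listed at 0 counts in all 4 libraries, and how the counting treated reads that match both is not given in the sources used here.

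Loxl3 (ENSMUSG00000000693, chromosome 6 from 83034173 to 83052562, plus strand) had 31.6 and 28.9 CPM in the control replicates and 28.7 and 32.6 CPM in the IL-12 replicates, so the groups overlapped fully. The change was 1.22%, with an interval from -10.0% to 13.9% (adjusted p = 0.901). Its exons share 535 bases with Htra2 on the opposite strand, which had 3357 counts over the 4 libraries against 2302 for Loxl3. Htra2 itself was higher with IL-12 (log2FC 0.41, SE 0.06, adjusted p = 4.26e-05), and because use of strand in the counting is not stated, the value of Loxl3 is uncertain.

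Loxl4 (ENSMUSG00000025185, chromosome 19 from 42593982 to 42612813, minus strand) had 3 and 3 counts in the control replicates and 1 and 9 in the IL-12 replicates. The IL-12 replicates lay on either side of the controls. The ratio of the summed counts was 1.66, with an exact interval from 0.548 to 5.57, so a difference in Loxl4 was not detectable at this depth.

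The composition of the lysyl oxidase mRNA was dominated by Loxl1 in every library. Loxl1 made up 85.6% and 86.2% of the summed FPKM of the 5 genes in the control replicates, and 85.6% and 84.9% in the IL-12 replicates. Loxl3 contributed 8.68% and 8.14%, then 7.41% and 8.68%, and Loxl2 3.87% and 3.66%, then 4.17% and 3.67%. The share of Lox went from 1.85% and 1.94% to 2.82% and 2.60%, so that the family member whose change passed the test was also a small part of the family mRNA. The sum itself was 78.9 and 77.3 FPKM in the control replicates and 84.3 and 81.7 FPKM in the IL-12 replicates.

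The other genes of collagen biosynthesis were examined in 5 lists that had been drawn up by function. Of their 59 genes, 44 were tested, 21 were higher and 5 were lower with IL-12 (59.1% called, beside 30.5% of all genes). Such a share is not particular to these lists. It was 57.1% of 7 podocyte, 75% of 4 fibroblast and mesangial and 100% of 3 tubular markers tested. The 1 leukocyte marker tested was not called. Whether the expression level of the listed genes has a part in these shares was not tested. Leaving out either IL-12 replicate, which leaves 1 library in that group, lowered the number of calls in these lists and also over all genes tested. Among the hydroxylases and glycosyltransferases, 3 of 11 genes tested were higher, 3 were lower and 5 did not pass. Of all genes, 16.1% were higher and 14.4% were lower, and the median log2FC of this list was 0.03. P3h2, a prolyl 3-hydroxylase that acts mainly on type IV collagen, fell, averaging 93.1 ± 6.00 CPM with saline and 47.3 ± 2.95 CPM with IL-12 (SD, n = 2 each), with a log2FC of -0.98 (SE 0.06, adjusted p = 5.14e-10). The catalytic subunits of prolyl 4-hydroxylase P4ha1 and P4ha2 were lower as well (-0.15 and -0.37), while their partner subunit P4hb was higher (0.15). Of the other lysyl hydroxylases, Plod3 was higher (0.15, adjusted p = 0.0119, but 0.216, 0.134 and 0.0512 without Control replicate 1, IL-12 replicate 1 or IL-12 replicate 2) and Plod1 did not pass (0.10, adjusted p = 0.248), which places Plod2, at 0.16, beside its paralogs in size. The collagen galactosyltransferase Colgalt1 was higher (0.26), and Colgalt2 was at 0 in all libraries.

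Of 12 folding and export genes tested, 7 were higher and 0 were lower by edgeR's test, beside 16.1% higher and 14.4% lower of all genes, and 5 did not pass. The median log2FC was 0.14. With scaling by total counts only, which lowers the share of higher calls over all genes to 40.5%, 4 of the 12 were called. Hspa5, the general chaperone BiP, rose, averaging 805 ± 4.07 CPM with saline and 1120 ± 16.2 CPM with IL-12 (SD, n = 2 each), with a log2FC of 0.48 (SE 0.03, adjusted p = 1.24e-10). Sec24d, a coat subunit of the vesicles that export procollagen, rose by 0.38 on the log2 scale (SE 0.05). Hsp90b1, Ppib, Mia3, Fkbp10 and Pdia3 were higher by 0.23, 0.15, 0.14, 0.14 and 0.096. The call of Ppib was lost without Control replicate 1 (adjusted p = 0.323), IL-12 replicate 1 (0.250) or IL-12 replicate 2 (0.0570), that of Mia3 without Control replicate 2 (0.265), IL-12 replicate 1 (0.0700) or IL-12 replicate 2 (0.272), and that of Pdia3 without Control replicate 1 (0.0527). The log2FC of Serpinh1, 0.10, was near that of Pdia3 and below that of Hspa5.

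Of the other propeptide proteinases and their regulators, 5 of 10 were tested, 3 were higher, 0 were lower and 2 did not pass. Over all genes, 16.1% were higher and 14.4% were lower. Pcolce2, the paralog of Pcolce, had 51 and 30 counts in the control replicates and 78 and 60 in the IL-12 replicates. Its log2FC was 0.76 (SE 0.26, adjusted p = 0.0322), opposite in direction to that of Pcolce, but its mean level of 0.624 FPKM was far below the 103 FPKM of Pcolce, and its call was lost without Control replicate 2 (adjusted p = 0.299), IL-12 replicate 1 (0.273) or IL-12 replicate 2 (0.0862). Postn, a matricellular protein that binds Bmp1, had 56 and 47 counts against 79 and 96 (0.77, SE 0.22, adjusted p = 0.0112), and its call was lost without Control replicate 2 (adjusted p = 0.0584) or IL-12 replicate 2 (0.157). Furin, which activates proproteins including those of the tolloid family, was higher by 0.14, a call lost without Control replicate 2 (adjusted p = 0.0929) or IL-12 replicate 1 (0.0641). With the DESeq2 Wald test, and without Control replicate 2, 0 of the 5 genes were called, and leaving out IL-12 replicate 1 or IL-12 replicate 2 gave 1 call in each case. The N-propeptide proteinases Adamts2, Adamts3 and Adamts14 had at most 6 counts in any library, and Tll2 at most 1, so Bmp1 and Tll1 were the tolloid genes with a measurable level.

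Over all genes tested, 16.1% were higher and 14.4% were lower. The median log2FC of the partners of the lysyl oxidases was 0.19. Of 9 partner genes tested, 4 were higher, 2 were lower and 3 did not pass. Without IL-12 replicate 1, and equally without IL-12 replicate 2, 3 of them were called. Fn1 (fibronectin, a scaffold for Lox and Bmp1) rose, averaging 3047 ± 24.5 CPM with saline and 3960 ± 19.1 CPM with IL-12 (SD, n = 2 each), with a log2FC of 0.38 (SE 0.02, adjusted p = 1.69e-10). Efemp2 (fibulin-4, which binds the Lox precursor and tropoelastin) was higher by 0.23 (SE 0.04, adjusted p = 0.000102). Slc39a13 and Pxdn were higher by 0.19 and 0.092 (adjusted p = 0.00396 and 0.0218 from edgeR's test). The call of Pxdn was lost in 9 of 13 alternatives and that of Slc39a13 in 1. Fmod (fibromodulin, which directs Lox to collagen) and Tgm2 (a transglutaminase that makes a different crosslink) were lower, with log2FC values of -0.46 and -0.24. Both calls were lost without IL-12 replicate 1 (adjusted p = 0.0774 and 0.0843), and that of Fmod also without Control replicate 2 (0.129) or IL-12 replicate 2 (0.0760). Atp7a, the copper transporter that loads secreted cuproenzymes, had a log2FC of -0.12 and did not pass (adjusted p = 0.329).

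Among the substrates, 4 of 7 genes tested were higher, 0 were lower and 3 did not pass, beside 16.1% higher and 14.4% lower of all genes. Col7a1, a substrate of Bmp1, had 72 and 78 counts in the control replicates and 152 and 154 in the IL-12 replicates, a log2FC of 1.03 (SE 0.16, adjusted p = 7.11e-05). Col1a1 had 10.4 and 8.58 CPM with saline and 15.1 and 15.8 CPM with IL-12, and rose by 0.70 on the log2 scale (SE 0.12, adjusted p = 0.000167). Col5a1 had 227 and 232 CPM with saline and 313 and 301 CPM with IL-12, a rise of 0.42 (SE 0.04, adjusted p = 3.62e-08). Col5a2, with 64.6 FPKM the most abundant collagen of the list per length, was higher by 0.093 (SE 0.03, adjusted p = 0.0166), but the call was lost without Control replicate 2 (adjusted p = 0.156), IL-12 replicate 1 (0.0852) or IL-12 replicate 2 (0.0502). The partner chain Col1a2 had at most 4 counts in any library, Col3a1 at most 4 and elastin (Eln) at most 2, so the cells held little mRNA for several classical substrates of these enzymes.

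**Figure D4:**
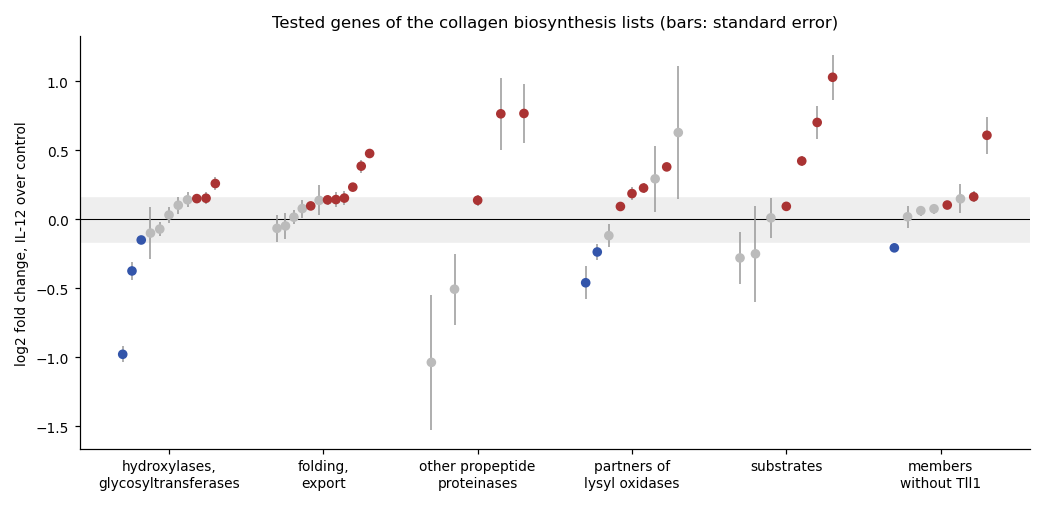
Log2FC values (IL-12 over control) with SE for the tested genes of the 5 functional lists and for the group itself without Tll1, in red where called higher, blue where called lower and light grey where not called. P3h2 at -0.98 is the lowest called value and Col7a1 at 1.03 the highest, and the grey band spans the quartiles of all genes, from -0.17 to 0.15.

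The calls of the group were compared under the alternative scalings, tests and filters and with each library left out. For the 8 genes other than Tll1, the log2FC values stayed between -0.25 and -0.18 for Pcolce, between 0.39 and 0.68 for Lox, between 0.12 and 0.19 for Plod2 and between 0.062 and 0.13 for Serpinh1. Bmp1, Loxl1, Loxl2 and Loxl3 passed in 0 of 13 alternatives each, and the value of Loxl3 lay on both sides of 0, from -0.074 to 0.11.

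**Figure D5:**
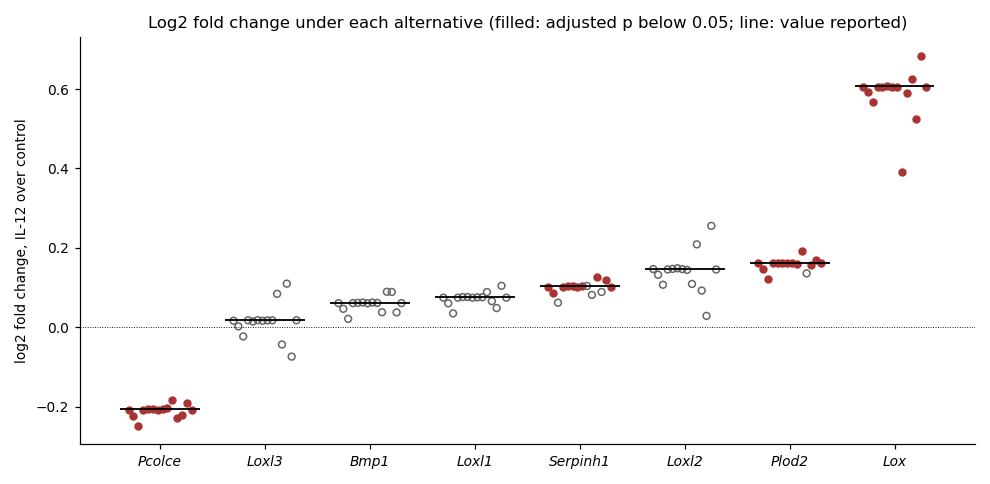
Log2FC values of 8 genes under each alternative setting, with filled red points where the adjusted p was below 0.05, open points where it was not, and a black line at the value reported. Pcolce and Lox are filled throughout, Plod2 and Serpinh1 in most settings, and the other 4 genes in none.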

How the data were processed

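RNA-sequencing libraries of the podocyte line (2 per group) were grouped by their sample titles. Raw, unnormalized counts of each gene were deposited by the authors together with FPKM values, which equal those counts per kilobase and per 1000000 reads times 1 factor per library (0.985 to 1.02) and were used to compare levels between genes and in an alternative. The submitters' processing notes name HISAT2, StringTie and mm9 without roles or versions, whereas the deposited coordinates equal GENCODE M21 (GRCm38) for 98.3% of shared genes and for 9 of the 10 genes described, so GRCm38 positions are given as deposited. Strand and multi-mapping rules are not given in the sources used here.

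R 4.3.3 was used with edgeR 4.0.16 (counts; filterByExpr, at least 10 counts and 15 in total, 14095 genes kept, then TMM scaling and the quasi-likelihood test without a block, with Benjamini-Hochberg adjustment over all genes tested), limma 3.58.1 and DESeq2 1.42.0. A gene was called at an adjusted p below 0.05. The SE of a log2 fold change is its size over the root of its F statistic, and the 95% intervals use the test's degrees of freedom. CPM uses the counts of the tested genes and the TMM factors. The fit was tested on simulated data. Words of 50 bases were compared across GENCODE transcripts. The named genes are the 10 genes and those of the functional lists, with values given for any that did not pass. The promoter motifs, Htra2 and Gm21451 were picked after the data were seen. The genes and lists were chosen with earlier results of these data known. Alternatives covered scaling, test, filter, fold limit, replicate block, each library left out and log2(FPKM + 1). The DESeq2 Wald test without independent filtering was added after seeing the data. Some podocyte markers are not reported here by name.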

Additional observations from a re-analysis of the deposited data

How the results depend on the processing

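Of the 9 genes tested, all kept the direction of each called change under every alternative that tested them, and the called values of Lox and Pcolce passed in all 13 alternatives. Calls of the group numbered 4 or 5 throughout. Over 2-fold, 0 genes were called with the DESeq2 Wald test, 0 with that test without independent filtering (added after seeing the data) and 0 with at least 10 counts in every library, since Tll1 had no adjusted p, had an adjusted p of 0.117, or was not tested, in that order, and 2 genes (Tll1 and Lox) with a 1.5-fold limit. The left-out libraries moved the log2 fold change of Tll1 from 2.69 to 8.30, a value that depends on the prior count where the control is at 0, that of Lox from 0.52 to 0.68, that of Pcolce from -0.23 to -0.18, that of Plod2 from 0.14 to 0.19 and that of Serpinh1 from 0.081 to 0.13. Serpinh1 also lost its call on log2(FPKM + 1) with limma (adjusted p = 0.112), where Tll1 had a log2 fold change of 0.31 because the added 1 exceeds its level.

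For the 5 functional lists, 26 genes were called, 17 to 22 with a library left out, 17 with the DESeq2 Wald test without independent filtering and 27 with the replicate block. The replicate numbers pair the libraries by label only, and same-numbered libraries did not deviate together (correlation across genes of -0.032). With the replicate block, 5 genes of the group were called, as without it. Scaling by total counts only lowered the median of all genes by -0.041 on the log2 scale, and the share of calls that were higher from 52.8% to 40.5%. For Loxl4, Tll1 in the control libraries and the list genes that were not tested, counts were too few to show a difference, and low depth and absent expression cannot be told apart.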
